A study of Mus musculus with 21 samples.

Results

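The integrated stress response and serine synthesis genes described here are 10 genes of the ATF4 pathway: Atf4, Ddit3, Asns, Trib3, Chac1, Sesn2, Psat1, Phgdh, Shmt2 and Mthfd2. They were chosen by name with earlier results of these data known, as were the gene lists used below. Their counts beside shares of all genes are therefore descriptions. All 4 tables of the series held 9 of these 10 genes, out of 14698 genes held by any table and 9973 held by all of them. Chac1, which encodes a glutathione-degrading enzyme, is not analysed here. Every library came from the single line Ba/F3, mouse cells of pro-B origin, expressing JAK2-V617F, the activating kinase mutation of myeloproliferative neoplasms. The parental line depends on interleukin-3, and the study reports that Ba/F3 cells with JAK2-V617F grow without it. The cells were exposed for 6 h to DMSO, to 1 μM ruxolitinib, a type I JAK2 inhibitor, or to 1 μM CHZ868, a type II inhibitor (DMSO-treated, ruxolitinib-treated and CHZ868-treated). In the washout experiments the exposure lasted 1 h, the cells were washed with PBS, and RNA was taken after 6 h without inhibitor (ruxo-wash and CHZ868-wash), each against its own DMSO-wash group. Each of the 7 groups held 3 libraries, 21 in all, and all groups carried the mutant kinase, so none of them shows cells without it.

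ATF4 is a transcription factor whose protein is made when the kinases that phosphorylate eIF2α slow general translation, as they do under amino acid shortage, unfolded protein, heme shortage or viral RNA. It turns on genes for amino acid uptake and synthesis, among them the enzymes that build serine from a glycolytic intermediate and the mitochondrial enzymes that pass the carbon of serine to folate. It also turns on Ddit3, which encodes the stress factor CHOP, and Trib3, Sesn2 and Chac1. In growing cells ATF4 is also raised through mTORC1, the kinase complex of growth signalling.

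The values are log2 CPM, that is reads of a gene scaled to the library total. The libraries outside the ruxolitinib washout held whole reads, between 7880000 and 10670000 per library on the listed genes. The depth of the 6 ruxolitinib washout libraries could not be read from the values. The 4 tables had been normalized separately, so levels were compared only within a table, except for ruxolitinib-treated cells. Of 6 hematopoietic markers, 5 were held by all tables, whereas of 6 pro-B markers 1, Cd79a, was, and Pax5, Ebf1, Vpreb1 and Igll1 were held by none. The 3 T cell and 3 epithelial markers were held by none either. All tables held 2 of 4 macrophage markers, Csf1r and Cd68, and none of 3 fibroblast markers was held by all. After 6 h of CHZ868, 1 of the 5 hematopoietic markers rose (Spi1, 0.75 ± 0.09), 3 fell, and 1 of the 2 macrophage markers fell (Csf1r, -1.18 ± 0.32). Over all genes 26.8% were called higher and 26.4% lower in that comparison. After CHZ868 washout Spi1 was called lower (-0.57 ± 0.14), as were 2.07% of all genes. That call, like all others of the comparison, was lost in an alternative fit given below. The part of these markers in the results was not tested. The STAT5 target genes Pim1, Cish and Socs1 differed from DMSO-treated cells by -3.20, -1.39 and -5.20 log2 units after 6 h of CHZ868. After 6 h of ruxolitinib they differed by -2.84, -1.32 and -4.06, in median-centred values without a test. The DMSO-wash library 3 of the CHZ868 washout experiment and ruxolitinib-treated library 2 stood apart from their groups for most of the genes described below, and results that rest on them are given with and without them.

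**Figure D1:**
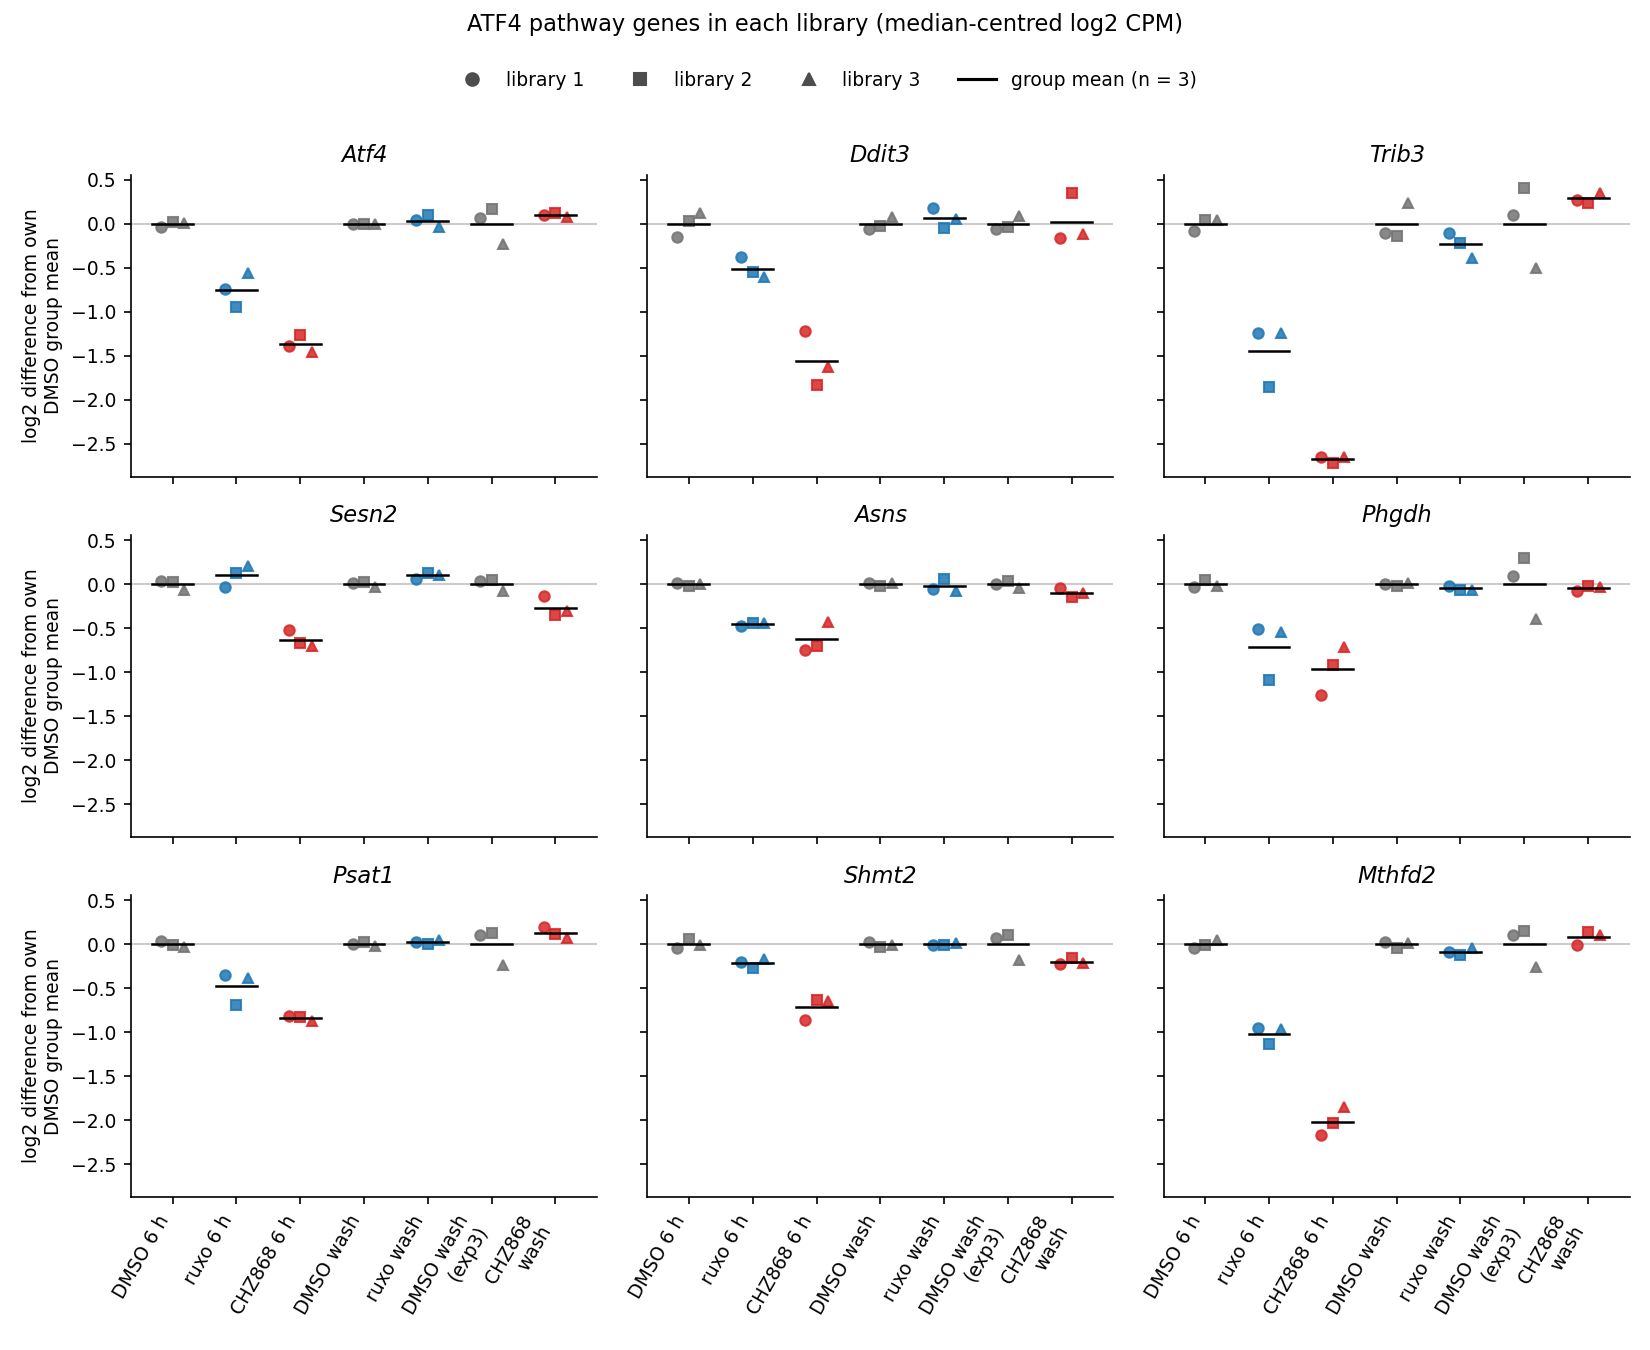
Each point is 1 library, plotted as its median-centred log2 CPM minus the mean of its own DMSO group (vertical axis, log2 units), for 9 genes and the 7 groups (horizontal axis); black bars are group means of 3 libraries. All 9 genes lie below 0 in the CHZ868-treated libraries, 8 of them also do in every ruxolitinib-treated library, and the washout libraries scatter around 0.

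After 6 h of CHZ868 exposure the libraries held less RNA of all 9 ATF4 pathway genes. The differences ranged from -2.67 for Trib3 to -0.63 for Asns and Sesn2, with a median of -0.97 against -0.008 over all 11670 genes tested. All 9 passed the test (limma-trend, Benjamini-Hochberg adjusted p under 0.05), where 26.4% of all genes were called lower, 26.8% higher and 53.2% in either direction. In none of the 9 did a CHZ868-treated library reach the level of a DMSO-treated library, and 30.1% of all genes were lower without overlap. In bulk RNA, fewer cells expressing a gene and less of its RNA per cell cannot be told apart.

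Among the regulators, Atf4 (chr15:80255184-80257541, plus strand, GRCm38) was 8.14, 8.21 and 8.19 log2 CPM in the DMSO-treated libraries and 6.80, 6.93 and 6.71 in the CHZ868-treated libraries. The groups were far apart, and Atf4 fell by 1.37 ± 0.07 (SE), to 38.7% of the DMSO level (adjusted p = 3.47e-10). This is the transcript that encodes the factor itself, whose protein level was not measured here. Ddit3 (chr10:127290774-127296288, plus strand), the gene of the pro-apoptotic factor CHOP, was the least abundant in reads, with 270 to 360 reads in DMSO-treated and 72 to 148 in CHZ868-treated libraries. Its values were 4.96, 5.14 and 5.23 log2 CPM with DMSO and 3.90, 3.29 and 3.47 with CHZ868. The CHZ868-treated libraries spread more than for any other of these genes (SD 0.313), with library 1 the highest, and the fall was 1.56 ± 0.17 (adjusted p = 1.70e-06). The symbol Ddit3 names 2 overlapping genes in GENCODE M21, and how their reads were assigned cannot be read from the values.

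Trib3, the gene of a pseudokinase that ATF4 and CHOP induce and that restrains AKT and ATF4 itself, gave the largest difference of the 9 genes. It lies at chr2:152337422-152344032 on the minus strand. The DMSO-treated libraries held 6.72, 6.85 and 6.84 log2 CPM and the CHZ868-treated libraries 4.16, 4.09 and 4.14. Within each group the libraries differed by little, and Trib3 fell by 2.67 ± 0.09, that is 6.37-fold, to 15.7% of the DMSO level (adjusted p = 7.93e-12). Sesn2 (chr4:132492032-132510501, minus strand) encodes a sestrin, a leucine sensor that holds back mTORC1. Its levels were 7.12, 7.11 and 7.02 with DMSO and 6.56, 6.42 and 6.36 with CHZ868. Sesn2 was lower by 0.63 ± 0.07 without overlap (adjusted p = 4.12e-06), one of the 2 smallest falls of the 9.

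Asns, asparagine synthetase, makes asparagine from aspartate and glutamine and is a classical ATF4 target. The gene lies at chr6:7675169-7693254 on the minus strand. Asns measured 8.54, 8.51 and 8.52 log2 CPM in DMSO-treated and 7.78, 7.83 and 8.08 in CHZ868-treated cells. CHZ868-treated library 3 was nearest to the controls but still below them, and the fall was 0.63 ± 0.07, to 64.6% of the DMSO level (adjusted p = 3.27e-06).

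ATF4 binds DNA as a dimer with CCAAT/enhancer binding proteins, at a composite element whose core is TGATGNAA (TTNCATCA on the other strand). The core was searched on both strands in the RefSeq promoter windows of GRCm38.p6, 300 bases from 250 before to 50 after each annotated start. It was present in 1304 of 32851 windows (3.97%). Counted by gene, 1219 of 27025 genes (4.51%) had a match, and 2 of the 9 measured genes did, Asns and Trib3. These 2 stretches of 30 bases are shown because they are the matches among the measured genes; the capitals mark the match, and each is written 5′ to 3′ on the strand of the gene.
Asns: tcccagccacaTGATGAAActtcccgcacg
Trib3: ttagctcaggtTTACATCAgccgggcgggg
The Asns stretch is chr6:7693214-7693243 (GRCm38.p6, minus strand), its match begins 23 bases before the RefSeq start, and it lies inside the gene as GENCODE M21 draws it. The Trib3 stretch is chr2:152344028-152344057 (minus strand), and its match, in the reverse orientation, begins at base 15 after the RefSeq start. Trib3 and Asns stood at opposite ends of the order of the falls, -2.67 and -0.63, and the windows of Atf4, Ddit3, Sesn2, Psat1, Phgdh, Shmt2 and Mthfd2 did not hold these letters, which says nothing about binding elsewhere.

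The enzymes of the opening steps of serine synthesis, Phgdh and Psat1, both fell. Phgdh (chr3:98313170-98339990, minus strand) catalyses the first step from 3-phosphoglycerate. It was 8.32, 8.40 and 8.33 log2 CPM with DMSO and 7.10, 7.44 and 7.62 with CHZ868, the CHZ868-treated libraries spreading more widely (SD 0.266 against 0.0422). Phgdh fell by 0.97 ± 0.10, to 51.2% of the DMSO level (adjusted p = 1.01e-06). Psat1 (chr19:15904678-15947337, minus strand), the aminotransferase of the next step, was 9.45, 9.41 and 9.39 with DMSO and 8.60, 8.60 and 8.53 with CHZ868. These libraries were close to one another, and Psat1 fell by 0.84 ± 0.05 (adjusted p = 6.83e-09). Reads of both genes may be shared with near-identical copies, 19 for Phgdh and 1 for Psat1 at 90% identity or more over at least 300 bases, so their levels are uncertain to that extent.

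The last step of serine synthesis went the other way. Psph, the phosphatase that releases serine, was 5.18, 5.14 and 4.99 log2 CPM in DMSO-treated and 5.46, 5.79 and 5.53 in CHZ868-treated cells. The groups did not overlap, and Psph rose by 0.49 ± 0.11 (adjusted p = 0.00163).

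The mitochondrial folate enzymes that take up the carbon of serine also fell, by unlike amounts. Shmt2 (chr10:127517123-127522444, minus strand), which splits serine into glycine and a folate-bound carbon, was 8.86, 8.96 and 8.89 log2 CPM with DMSO and 8.05, 8.27 and 8.25 with CHZ868. It fell by 0.71 ± 0.07, to 61.1% (adjusted p = 3.66e-07). Mthfd2 (chr6:83305691-83325908, minus strand), the dehydrogenase and cyclohydrolase that oxidises the carbon unit further, was 7.61, 7.65 and 7.71 with DMSO and 5.50, 5.63 and 5.79 with CHZ868. Mthfd2 fell by 2.02 ± 0.08, 4.05-fold, to 24.7% of the DMSO level (adjusted p = 4.87e-11), next to Trib3 in size.

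The order of the falls could be read only in part. Neighbours are called separable here where their ratio in each library did not overlap between the groups. This describes the order without testing it, and the neighbours were ranked on these same values. In that sense Trib3 was separable from Mthfd2 (gap 0.656 ± 0.0961 log2 units) and Mthfd2 from Ddit3 (0.455 ± 0.251). Ddit3 and Atf4 were not separable (gap 0.192 ± 0.223 log2 units), whereas Atf4 and Phgdh were (0.405 ± 0.179). From Phgdh through Psat1, Shmt2 and Sesn2 to Asns, no neighbours were separable, with gaps between 0.00356 and 0.128.

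Genes related to the 9 were followed in lists, also chosen with earlier results known, and counted without the 9 themselves. Of 33 measured other ATF4 target genes, 27 fell, 2 rose and 4 did not pass the test, with a median difference of -0.94. Over all genes 26.4% were called lower and 26.8% higher, with a median of -0.008. The amino acid carriers Slc7a11 (cystine), Slc7a1 (arginine and lysine) and Slc1a5 (glutamine) differed by -2.04 ± 0.12, -1.76 ± 0.08 and -1.73 log2 units, all past the test. Slc7a11 was 5.88, 6.02 and 6.10 log2 CPM with DMSO and 3.89, 3.82 and 4.16 with CHZ868, so the groups were about 2 log2 units apart. Gpt2, mitochondrial alanine aminotransferase, fell by 2.02 ± 0.10. Cebpg, a dimer partner of ATF4, fell by 1.28 ± 0.07, from 7.19, 7.16 and 7.17 to 5.82, 5.92 and 5.94. Tspyl2 (0.92) and Tnfrsf10b (0.45) were the 2 that rose, and Sqstm1, Herpud1, Ppp1r15a and Jdp2 did not pass.

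The wider serine and folate lists were mixed, and 26.8% of all genes were called higher and 26.4% lower. Among 7 measured other genes of serine and glycine synthesis, 3 rose and 2 fell: the serine racemase gene Srr fell by 0.62 ± 0.09 and the cytosolic Shmt1 by 0.53 ± 0.10, whereas Serinc1 (0.57 ± 0.06), Psph and Serinc3 rose. Among 12 other folate genes, 7 fell and 2 rose, with a median of -0.31. The folate carrier Slc19a1 fell by 0.84 ± 0.15. Mtrr, which keeps methionine synthase active, fell by 0.82 ± 0.16. Mthfd1 and Mthfd1l of the folate list differed by -0.28 and -0.27, each less than Mthfd2 in value.

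The kinases that start the response did not move together. Eif2ak1 (the heme-regulated kinase) was 6.55, 6.53 and 6.59 log2 CPM with DMSO and 6.99, 7.04 and 7.12 with CHZ868, a rise of 0.49 ± 0.07 (adjusted p = 2.16e-05). Eif2ak2 (PKR, the double-stranded RNA sensor) went from 7.44, 7.48 and 7.41 to 6.87, 6.64 and 6.87, a fall of 0.65 ± 0.07 (adjusted p = 3.11e-06). The transcripts of PERK and GCN2, Eif2ak3 and Eif2ak4, differed by 0.26 ± 0.12 (adjusted p = 0.0891) and 0.07 ± 0.11 (adjusted p = 0.607) and did not pass the test. Of the 24 measured upstream kinases and regulators, 8 rose, 5 fell and 11 did not pass, with a median of 0.11, and this count is near the 53.2% of all genes called. The largest rise was Btrc (0.86 ± 0.10), part of a ubiquitin ligase that degrades ATF4, and the largest fall Gcn1 (0.75 ± 0.06), the partner of GCN2. Of 13 measured tribbles, CHOP partner and ATF family genes, 6 fell and 1 rose, again near the 53.2% of all genes called. The list contains Cebpg and Cebpb, which the target list holds too.

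**Figure D2:**
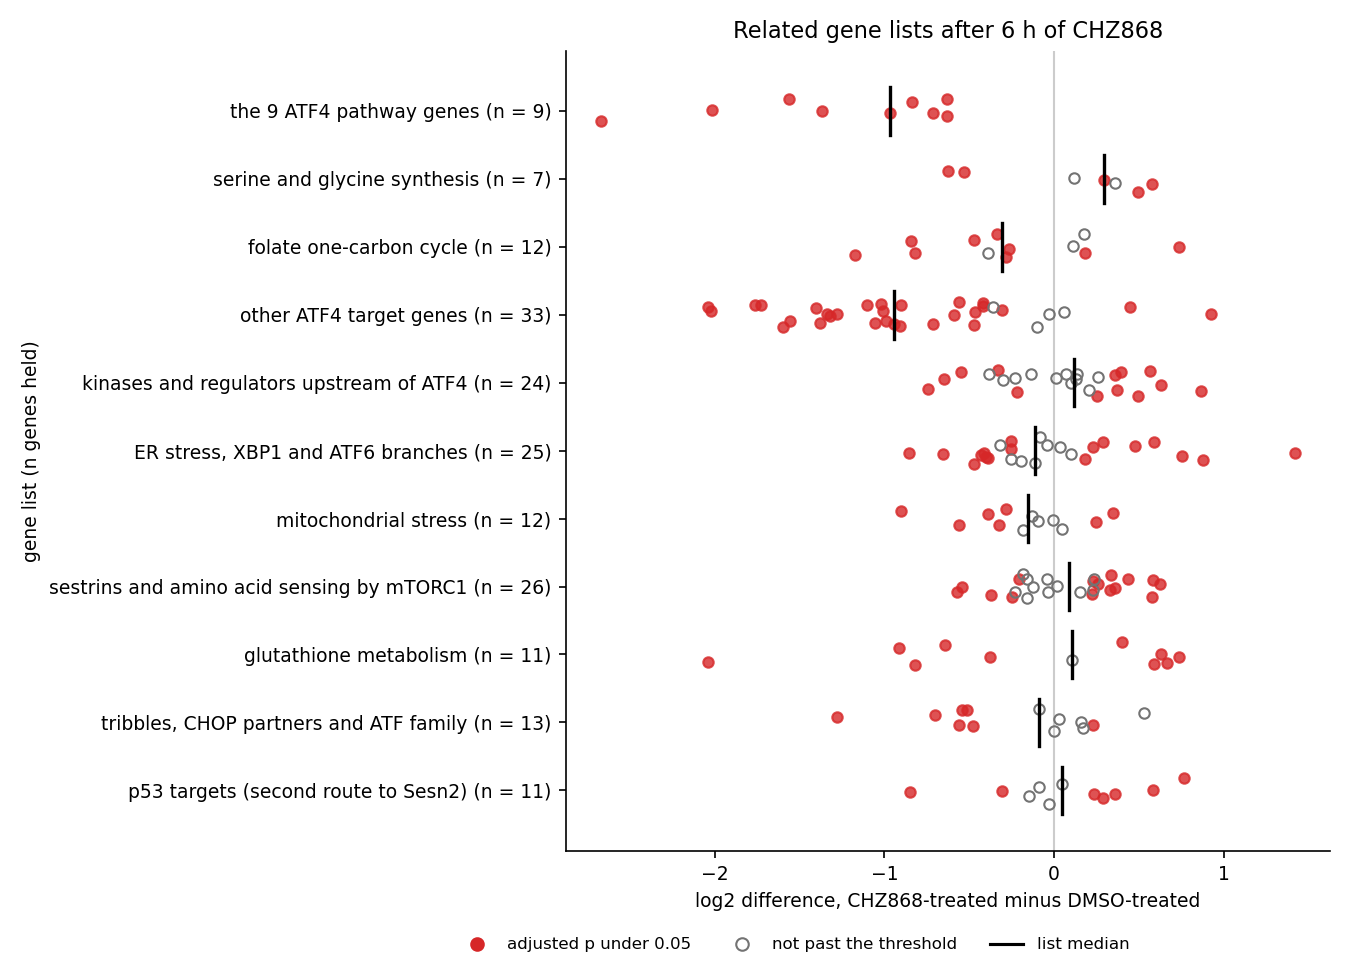
Each point is 1 gene, plotted by its log2 difference between CHZ868-treated and DMSO-treated cells (horizontal axis) in the list named on the vertical axis; filled points passed the adjusted p threshold of 0.05 and black bars are list medians. The 9 ATF4 pathway genes and the 33 other ATF4 target genes have medians of -0.97 and -0.94, while the medians of the other lists lie between -0.31 and 0.29; Slc7a11, Cebpg and a few others stand in more than 1 list.

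Ruxolitinib for 6 h lowered most of the same genes by less. The ruxolitinib-treated libraries stood in a table of their own, so the median of the 11624 genes common to the tables was set equal in every library, and the difference is given without a test. For 8 of the 9 genes the highest ruxolitinib-treated library was under the lowest DMSO-treated one, as it was for 20.1% of all genes. A difference of at least 0.5 log2 units without overlap was reached by 5 of the 9, Trib3, Mthfd2, Atf4, Phgdh and Ddit3, and by 9.24% of all genes in the lower and 6.55% in the higher direction. The median of the 9 was -0.50, against 0.035 over all genes. Ddit3 (-0.50) lay just inside this limit and Psat1 (-0.46) and Asns (-0.44) just outside.

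Atf4 was 7.45, 7.26 and 7.61 centred log2 CPM with ruxolitinib, 0.74 below its DMSO-treated mean and at 59.8% of it. Ddit3 was 4.74, 4.59 and 4.49, with a difference of -0.50, and its groups were close but did not overlap. Trib3 was 5.57, 4.97 and 5.56, a difference of -1.43, which leaves 37.0% of the DMSO level. Library 2 was the lowest of the 3 for Trib3, Atf4, Psat1, Phgdh, Shmt2 and Mthfd2, that is for 6 of the 9 genes. Without library 2 the differences of Trib3 and Atf4 were -1.24 and -0.65.

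The metabolic genes followed the same direction. Asns was 8.06, 8.11 and 8.08 with ruxolitinib (-0.44), the tightest group of the 9. Phgdh was 7.85, 7.29 and 7.80 (-0.71, or -0.53 without library 2), and Psat1 was 9.08, 8.75 and 9.03 (-0.46, or -0.36 without library 2). In both genes library 2 lay apart from the other libraries.

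Shmt2 was 8.71, 8.66 and 8.72 (-0.21), close to its controls but without overlap. Mthfd2 was 6.71, 6.54 and 6.69 (-1.01), at 49.7% of the DMSO level. Sesn2 was the exception: its ruxolitinib-treated libraries held 7.06, 7.23 and 7.28 against 7.12, 7.11 and 7.02 with DMSO, a difference of 0.11 with overlapping groups. Without library 2, the number of genes at least 0.5 log2 units lower without overlap was 4 of 9.

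At the same dose and time, CHZ868-treated and ruxolitinib-treated cells can be set side by side, each against the same 3 DMSO-treated libraries. After the same centring, the differences with ruxolitinib and with CHZ868 were -1.43 and -2.65 for Trib3, -1.01 and -1.99 for Mthfd2, and -0.74 and -1.34 for Atf4. For Ddit3 they were -0.50 and -1.53, and for Sesn2 0.11 and -0.61. In 7 of the 9 genes every ruxolitinib-treated library lay above every CHZ868-treated library, which held for 18.6% of all genes in that direction. The direct centred difference between the inhibitors was widest for Trib3, 2.31-fold, and Ddit3, 2.04-fold. Asns and Phgdh were the genes whose inhibitor groups overlapped, with differences of 0.16 and 0.23. Inhibitor and table cannot be told apart in these values.

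The related genes were mixed in how their ruxolitinib and CHZ868 values compared. Of the 33 other ATF4 target genes, 13 were at least 0.5 log2 units lower without overlap with ruxolitinib and none was higher to that extent, and their median was -0.43. Slc7a11 was 4.71, 4.70 and 4.49 (-1.36), Gpt2 differed by -1.12, and Nupr1, a stress-induced chromatin protein, by -1.39. Psph, which rose with CHZ868, was 4.87, 4.63 and 5.03 with ruxolitinib against 5.18, 5.14 and 4.99 centred with DMSO, and these groups overlapped. Eif2ak1 was higher by 0.33 and Eif2ak2 lower by 0.84, both without overlap. Eif2ak2, Nupr1, Shmt1, Slc25a32 and Slc19a1 were among the genes that differed by more with ruxolitinib than with CHZ868 in value. For Nupr1 the centred ruxolitinib difference was -1.39, against -1.01 with CHZ868, which was not centred. In the other lists, 2 of 7 serine and glycine genes (Shmt1, -0.72, and Srr, -0.55) and 4 of 12 folate genes, led by the mitochondrial folate carrier Slc25a32 (-0.95) and Slc19a1 (-0.90), were lower past the limit. Of the 24 upstream genes 4 were lower and 1 higher, and of the 13 tribbles and ATF family genes 1, Cebpg (-0.94), was lower. Over all genes 9.24% were lower and 6.55% higher past this limit. The 1 of 13 lower and the 1 of 24 higher are near these shares.

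**Figure D3:**
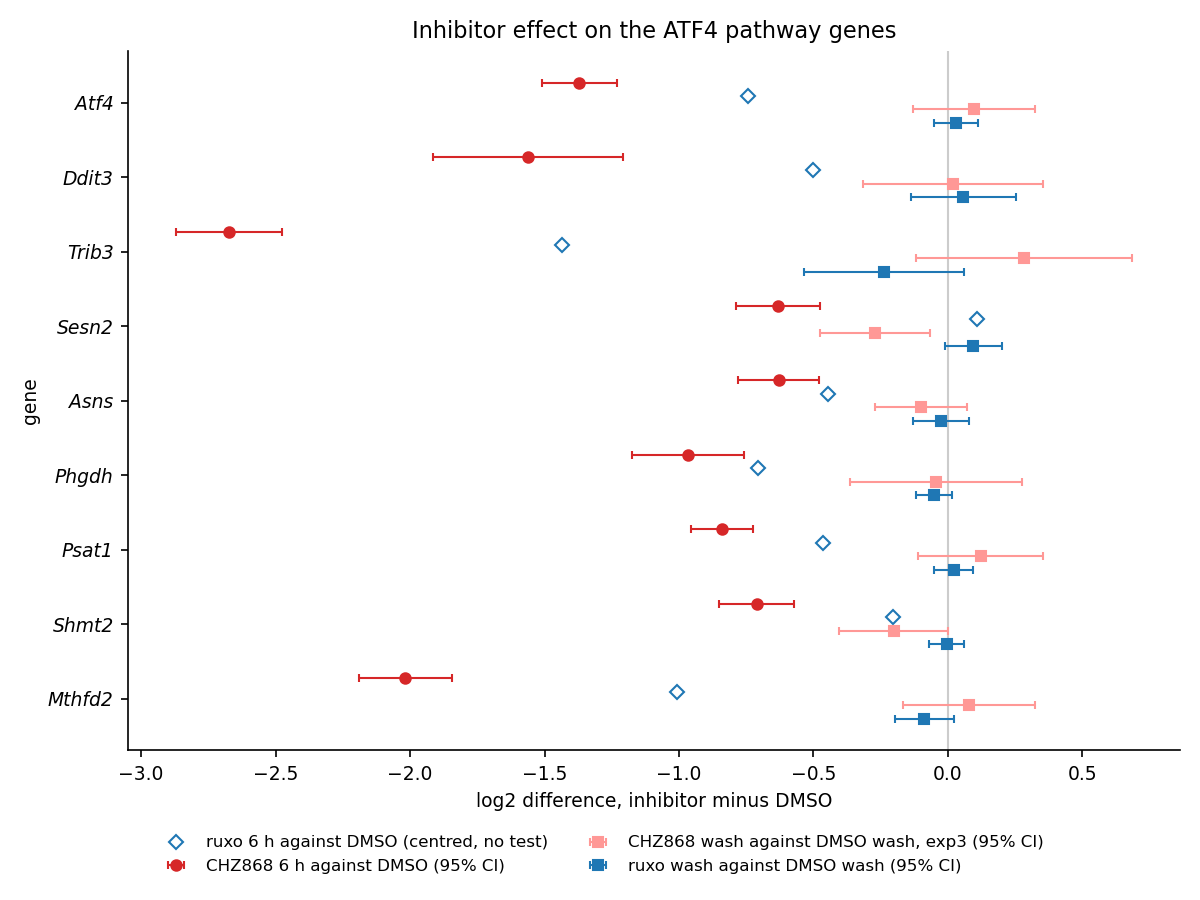
Log2 difference between inhibitor and DMSO (horizontal axis) for 9 genes (vertical axis); filled symbols are limma-trend estimates with 95% confidence intervals from 3 against 3 libraries, and open diamonds are centred differences after 6 h of ruxolitinib, which have no test. The CHZ868-treated estimates lie between -2.67 and -0.63, and the washout estimates lie between -0.27 and 0.28.

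After CHZ868 had been washed out for 6 h, none of the 9 genes passed the test in the CHZ868-wash against DMSO-wash comparison (limma-trend, adjusted p under 0.05), in which 4.02% of 11355 genes were called. At an unadjusted p under 0.05 there was 1, Sesn2, against 24.4% of all genes. The median difference of the 9 was 0.02. The regulators were close to their controls: Atf4 was 8.22, 8.25 and 8.21 log2 CPM after CHZ868 and 8.19, 8.30 and 7.90 after DMSO, a difference of 0.10 (95% CI -0.13 to 0.33). Trib3 was 6.41, 6.36 and 6.49 after CHZ868 and 6.22, 6.54 and 5.64 after DMSO, a difference of 0.28 (-0.12 to 0.68). In both genes DMSO-wash library 3 was the lowest of the 6 libraries and the other DMSO-wash libraries enclosed the CHZ868-wash values. Ddit3 was 4.48, 4.98 and 4.52 against 4.58, 4.61 and 4.74, a difference of 0.02 (-0.32 to 0.35), with CHZ868-wash library 2 above all the others.

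Sesn2 was the gene nearest to a call. It was 6.59, 6.37 and 6.42 after CHZ868 and 6.76, 6.77 and 6.65 after DMSO, so the groups did not overlap, and the difference was -0.27 ± 0.09 (adjusted p = 0.112). Asns was 7.69, 7.58 and 7.63 against 7.73, 7.77 and 7.70, also without overlap, at -0.10 ± 0.08 (adjusted p = 0.451). Groups that did not overlap in the lower direction were found for 16.1% of all genes.

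The serine and folate genes had wide intervals. Phgdh was 8.43, 8.47 and 8.47 after CHZ868 and 8.59, 8.80 and 8.11 after DMSO, a difference of -0.05 (-0.37 to 0.27). Psat1 was 9.02, 8.94 and 8.90 against 8.93, 8.96 and 8.60 (0.12, -0.11 to 0.35). Shmt2 was 8.61, 8.67 and 8.63 against 8.90, 8.95 and 8.66, a difference of -0.20 (-0.41 to 0.002, adjusted p = 0.209). Mthfd2 was 6.86, 7.0 and 6.97 against 6.97, 7.01 and 6.62 (0.08, -0.17 to 0.32). In Atf4, Trib3, Psat1, Phgdh, Shmt2 and Mthfd2 alike, DMSO-wash library 3 was the lowest of its group.

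That library decided part of the result. Without it, 3 of the 9 genes passed the test as lower after CHZ868: Sesn2 (-0.31, adjusted p = 0.0276), Phgdh (-0.24, adjusted p = 0.0410) and Shmt2 (-0.29, adjusted p = 0.00964). Atf4 then differed by -0.02 and Mthfd2 by -0.05, both reversed in sign, and Trib3 by 0.04. The number of genes called across the table was then 1426 in place of 457. The same library was the highest of its group for Dnajb9, an endoplasmic reticulum chaperone (5.95 log2 CPM against 5.27 and 4.81), and for Eif2ak2 (7.38 against 6.85 and 6.67). Whether these values have a part in the differences of the 9 genes was not tested.

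**Figure D4:**
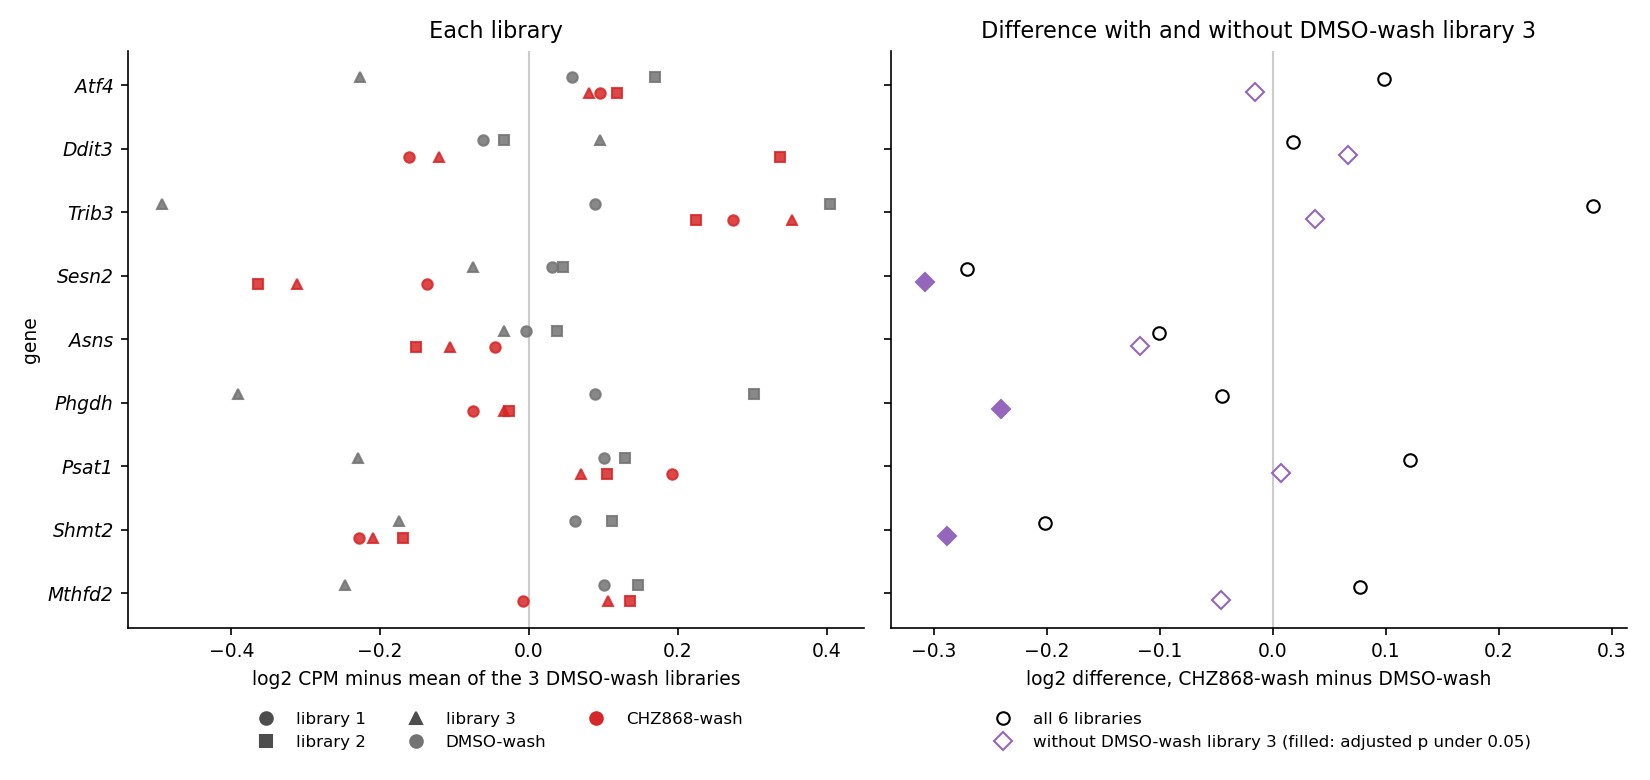
Left, each library of the CHZ868 washout experiment as log2 CPM minus the mean of the 3 DMSO-wash libraries (horizontal axis) for 9 genes; right, the log2 difference between CHZ868-wash and DMSO-wash with all 6 libraries (circles) and without DMSO-wash library 3 (diamonds, filled where the adjusted p was under 0.05). Library 3 of DMSO-wash lies lowest of its group in 8 of the genes shown, and Sesn2, Phgdh and Shmt2 pass the threshold without it.

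Of the related lists, 3 of 33 other ATF4 target genes were called in this comparison, all lower, as were 2.07% of all genes: Cebpb (-1.42 ± 0.16), Herpud1 (-0.45 ± 0.09) and Eif4ebp1 (-0.42 ± 0.09). Cebpb, a partner of both ATF4 and CHOP, was 3.48, 3.93 and 3.53 log2 CPM after CHZ868 and 4.94, 5.28 and 4.98 after DMSO (adjusted p = 0.0117). No gene was called among 6 serine and glycine, 12 folate and 24 upstream genes. All 457 calls in this table were lost in a fit without the mean-variance trend, which called 0 genes, with 2562 at an unadjusted p under 0.05.

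After ruxolitinib had been washed out, none of the 9 genes passed the test (limma-trend, adjusted p under 0.05), where 3 of 13085 genes did (0.0229%), and none was under an unadjusted p of 0.05, where 7.03% of all genes were. The groups sat close to each other, with a median difference of -0.004 over the 9. Atf4 was 8.15, 8.19 and 8.09 log2 CPM in ruxo-wash and 8.11, 8.11 and 8.11 in DMSO-wash (0.03, 95% CI -0.05 to 0.11). Ddit3 was 5.52, 5.27 and 5.41 against 5.28, 5.32 and 5.43 (0.06, -0.14 to 0.25). Trib3 was 5.51, 5.39 and 5.25 against 5.52, 5.48 and 5.86, the widest difference of the 9 at -0.24 (-0.53 to 0.06, adjusted p = 0.758). These intervals leave out the sizes seen after 6 h with either inhibitor for Atf4 and Trib3.

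The metabolic genes differed by less than Trib3. Asns was 6.79, 6.88 and 6.78 in ruxo-wash and 6.86, 6.81 and 6.86 in DMSO-wash (-0.03, -0.13 to 0.08). Phgdh was 8.48, 8.42 and 8.45 against 8.51, 8.48 and 8.53 (-0.05, -0.12 to 0.02). Psat1 was 8.12, 8.08 and 8.15 against 8.10, 8.12 and 8.08 (0.02, -0.05 to 0.09). Every one of these groups overlapped.

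Shmt2 was 8.63, 8.62 and 8.66 against 8.67, 8.61 and 8.64, a difference of -0.004 (-0.07 to 0.06). Mthfd2 was 6.57, 6.52 and 6.63 against 6.69, 6.61 and 6.68 (-0.09, -0.20 to 0.02). Sesn2 was the only one of the 9 whose groups did not overlap, at 5.96, 6.01 and 6.02 against 5.92, 5.92 and 5.87, higher by 0.09 ± 0.04 (adjusted p = 0.724), where 6.3% of all genes were higher without overlap. No gene of the related lists was called.

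Whether the washout differences themselves differed between the inhibitors was tested over the 12 washout libraries. None of the 9 genes passed (limma-trend, adjusted p under 0.05), where 1.9% of 10078 genes did, and 1 was under an unadjusted p of 0.05, as were 18.9% of all genes. This was Sesn2, for which the ruxolitinib effect minus the CHZ868 effect was 0.36 ± 0.10 (adjusted p = 0.0750). For Trib3 it was -0.52 (95% CI -1.06 to 0.02, adjusted p = 0.280), and for Atf4 -0.07 (-0.32 to 0.19). Without library 3 of the CHZ868 experiment's DMSO-wash group, Sesn2 (0.40, adjusted p = 0.0343) and Shmt2 (0.28, adjusted p = 0.0197) passed. Among the related genes Cebpb was called, with a difference of 1.54 ± 0.17 (adjusted p = 0.00202), and so was the p53 target Trp53inp1, with -0.58 ± 0.12 (adjusted p = 0.0379). Inhibitor and experiment cannot be told apart here.

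The CHZ868 effect after 6 h of exposure differed from that after washout for all 9 genes. The difference between the effects was called lower for 9 of 9 (limma-trend), where 23.8% of 11175 genes were called lower and 47.1% in either direction. It was -2.96 ± 0.21 for Trib3, -2.09 ± 0.14 for Mthfd2 and -1.47 ± 0.13 for Atf4, and smallest for Sesn2, at -0.36 ± 0.12 (adjusted p = 0.0180). Sesn2 no longer passed without CHZ868-wash library 1 (-0.30, adjusted p = 0.0518), while the other 8 genes passed without any one library. Length of exposure, washing and experiment cannot be told apart in this comparison.

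Over all 21 libraries, each expressed relative to its own DMSO group, the 5 genes whose pattern was most like that of Atf4 were Uba7 (Pearson r = 0.996), Slc1a5 (0.991), Slc7a1 (0.989), Ripor2 (0.988) and Cyb5r1 (0.987), out of 9973 genes. Slc1a5 and Slc7a1 are amino acid carriers of the ATF4 target list. For Psat1 they were Atf4 (0.985), Heatr1 (0.985), Uba7 (0.983), Galnt6 (0.982) and Slc2a3 (0.981). Atf4, another of the 9, and Heatr1 were thus equally close to Psat1 at these digits. For Asns they were Usp36 (0.972), Eprs (0.969), 2410002F23Rik (0.968), Rrp1b (0.968) and Als2cl (0.965). The genes named for Atf4 and for Asns were not among the 9. The points share their DMSO means and depth within an experiment, and the 6 libraries with inhibitor for 6 h lie far from the rest, so these values describe likeness only.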

How the data were processed

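The 10 genes and all gene lists were chosen with earlier results of these data known. Per the methods of the study, the authors counted reads with kallisto on GRCm38 transcripts, filtered and TMM-normalized them with edgeR and fitted voom and limma; the submitters' processing notes name STAR 2.7.3a, edgeR 4.0.16 and GRCm39 instead, and which made the files is not settled. The deposited values are log2 CPM after the authors' filter and normalization, with a constant of 0.222 CPM added (0.213 for ruxolitinib-treated, 0.0912 in the ruxolitinib washout table), so folds of low genes are understated. Low values were whole reads within 0.1 read in all 15 libraries outside the ruxolitinib washout table (100% of them) and not in the libraries inside it. Each of the 4 tables was used as deposited, and all columns matched a sample.

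Groups were compared with limma-trend (limma 3.58.1, R 4.3.3) within a table, 3 against 3 libraries, p-values being adjusted by Benjamini-Hochberg across the whole table and called under 0.05; voom was not used, since it needs counts. Differences between effects were interaction contrasts. No test was run on ruxolitinib-treated cells, since they and their controls stood in tables normalized separately; their values were centred on library medians. The labels do not say that libraries of a group came from separate cultures, so p-values measure the spread between these libraries. The fits were tested on simulated data. Alternatives were limma without the trend, vooma weights, robust fitting, median centring (no centring for ruxolitinib-treated cells), quantile normalization, a minimum mean log2 CPM of 1, constants of 1 and 5 CPM, a replicate block and leaving out each library. Coordinates are from GENCODE M21 (GRCm38), near copies from blastn 2.17.0 among its transcripts, and promoter sequences from RefSeq (GRCm38.p6). Named genes were the 10, Eif2ak1 to Eif2ak4 and Psph, the 3 largest called differences per list without overlap and the 5 best-correlated genes; other names (Slc1a5, Tspyl2, Tnfrsf10b, Sqstm1, Ppp1r15a, Jdp2, Serinc3, Mthfd1, Pim1, Cish and Socs1 among them) were added after their values were seen or as markers. Some genes that the rule would name are not reported here.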

Additional observations from a re-analysis of the deposited data

Results flagged for a closer look

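For all 9 measured genes the effect of CHZ868 after 6 h of exposure differed from the effect left after 1 h of exposure and washout, by an interaction test in limma-trend over 12 libraries. The difference between the 2 effects, as the 6 h effect minus the washout effect on the log2 scale, was -2.96 for Trib3, -2.09 for Mthfd2, -1.58 for Ddit3 and -1.47 for Atf4. It was -0.96 for Psat1, -0.92 for Phgdh, -0.53 for Asns, -0.51 for Shmt2 and -0.36 for Sesn2. In each gene the 3 CHZ868-treated libraries lay below their controls, as they did for 30.1% of all genes. The adjusted p lay between 1.53e-08 for Mthfd2 and 0.0180 for Sesn2. Over all 11175 genes of this test, 23.8% were called lower and 47.1% in either direction. Sesn2 no longer passed without CHZ868-wash library 1 (adjusted p = 0.0518). Length of exposure, washing and experiment cannot be told apart here.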

How the results depend on the processing

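All 9 genes were called lower after 6 h of CHZ868 under every alternative and without any one library. With ruxolitinib for 6 h, 4 to 6 of 9 genes were past 0.5 log2 units without overlap across the alternatives, as without any one library, and the count over all genes was 1835 (1635 to 2301 without any one library) and 1179 with log2(CPM + 5). The ruxo-wash count was 3 genes: 9 without the trend, 5 with robust fitting, 0 with the replicate block (843 at an unadjusted p under 0.05) and 0 to 1 without any one library. The CHZ868-wash count was 457 genes: 0 without the trend and 0 to 1426 without any one library, with 0 to 3 of the 9 genes called. Without either DMSO-wash library 2 (1298) or 3 (1426) it rose, and without any other it was 0 or 1. The count for the difference between the washout effects was 191 genes: 14 without the trend, 122 with vooma weights, 6 with the replicate block, and 5 to 628 without any one library, with 0 to 2 of the 9 genes called. The causes were not tested. The labels do not say whether equal replicate numbers mark paired libraries. Between same-numbered libraries r lay from -0.05 to 0.05, and between differently numbered ones from -0.09 to 0.09. With 3 libraries per group these values cannot settle it. The replicate block changed no call of the 9 genes. It gave 6192 genes for CHZ868-treated cells, 539 for CHZ868-wash and 5109 for the difference between the 2 CHZ868 effects.

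Signs that reversed were all of small uncalled washout differences. In ruxo-wash Shmt2 was 0.0047 with median centring and -0.019 to 0.011 without any one library, and Ddit3 was -0.0011 to 0.12. In CHZ868-wash the ranges without any one library were -0.14 to 0.11 for Ddit3, -0.24 to 0.11 for Phgdh, -0.015 to 0.18 for Atf4 and -0.046 to 0.15 for Mthfd2. In the difference between washout effects they were -0.051 to 0.20 for Ddit3, -0.16 to 0.19 for Phgdh, -0.15 to 0.047 for Atf4 and -0.16 to 0.014 for Psat1. With 3 libraries per group the intervals of the washout differences reached 0.68 log2 units, so small differences could be missed, and the depth of the ruxolitinib washout libraries is unknown.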

Other observations

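The endoplasmic reticulum, mitochondrial and amino acid sensing genes that border the ATF4 pathway were called in both directions after 6 h of CHZ868, where 26.8% of all genes were called higher and 26.4% lower. Of 25 measured genes of the XBP1 and ATF6 branches, 8 rose and 9 fell (limma-trend): Dnajb9, a chaperone cofactor induced by XBP1, rose by 1.42 ± 0.10 from 4.65, 4.63 and 4.78 to 6.12, 6.12 and 6.08 log2 CPM, the calcium-binding chaperone gene Calr rose by 0.88 ± 0.06, and Hyou1 fell by 0.86 ± 0.09. With ruxolitinib Calr was higher by 0.58 and Hyou1 lower by 0.53, without overlap, and Dnajb9 was 4.52, 5.16 and 4.58 centred, with library 2 the highest. Of 12 mitochondrial stress genes, 5 fell, led by the protease gene Lonp1 (0.90 ± 0.07), which the ATF4 target list holds too, and 2 rose.

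Of 26 measured genes of sestrins and amino acid sensing by mTORC1, 10 rose and 5 fell after 6 h of CHZ868, near the 53.2% of all genes called in either direction. Sesn1, the p53-responsive relative of Sesn2, was 5.29, 5.57 and 5.55 with DMSO and 6.13, 6.09 and 5.93 with CHZ868, a rise of 0.58 ± 0.10 (adjusted p = 0.000199), opposite in direction to Sesn2. Of 11 p53 target genes 5 rose and 2 fell, with Ccng1 up by 0.77 ± 0.05 and Tigar, a regulator of glycolysis, down by 0.85 ± 0.29. Of 11 glutathione genes 5 rose and 5 fell, and beside Slc7a11 the largest falls were Ggt7 (0.91 ± 0.11) and Oplah (0.82 ± 0.31). After CHZ868 washout 1 of 25 genes of the endoplasmic reticulum list (Pdia3, -0.42) and 1 of 11 p53 targets (Trp53inp1, 0.45) were called. None of the mitochondrial, sestrin or glutathione lists was. Over all genes 4.02% were called, and the 1 of 25 is near this share. A fit without the mean-variance trend called 0 genes in this comparison.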
